A study of Mus musculus with 2 samples.

Results

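The fibroblast growth factor (FGF) receptor family was examined cell type by cell type in mouse digit wounds treated with FGF8. The family is made up here of 5 genes, *Fgfr1*, *Fgfr2*, *Fgfr3*, *Fgfr4* and *Fgfrl1*, which were taken by gene symbol from the 33696 genes listed for each library. Their transcripts were counted by single-cell RNA sequencing (scRNA-seq), which tags every captured transcript with a barcode for its cell and with a unique molecular identifier (UMI) that lets PCR copies count as 1 molecule. The samples were hindlimb digits 2 and 4 of ICR mice, amputated through the middle phalanx (P2) at postnatal day 3 (PN3). At PN7 a bead with FGF8 (500 ng/µl) or with the carrier protein BSA (0.1%, the control) was placed in the wound, and the tissue distal to the bone stump was collected 24 h later, at PN8, after the epithelium was dissected away. Each condition is 1 library of 20 digits pooled from 5 mice, male and female, and no transgene or mutation is given for either group. Comparing the receptors by cell type addresses which cells of the wound carry transcripts of receptors for the implanted FGF8. It also addresses whether these transcripts differed a day after FGF8 was supplied. Receptor protein was not measured in these libraries. With 1 library per condition no difference has a replicate check, no p-value was computed, and every interval below is a 95% interval for counting error only. Treatment, mice, dissection and library cannot be told apart.

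FGF receptors are receptor tyrosine kinases at the cell surface that bind FGFs together with heparan sulfate, pair up, and signal through the adaptor Frs2 to Ras and the MAP kinases. *Fgfr1*, *Fgfr2* and *Fgfr3* each have a pair of mutually exclusive exons for the last part of the ligand-binding region, called IIIb and IIIc; mesenchymal cells typically use IIIc, epithelial cells IIIb, and FGF8 is known to prefer the IIIc forms and *Fgfr4*. *Fgfrl1* binds FGFs but lacks the kinase domain. In the limb, *Fgfr1* and *Fgfr2* are known for mesenchyme and skeletal precursors and *Fgfr3* for growth plate cartilage, where it restrains chondrocyte proliferation.

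The exon pair of *Fgfr3* is shown here as an example of the exons that set which ligands a receptor can bind, because the counts cannot tell the forms apart. Both exons are given 5′ to 3′ on the coding strand, read from the GRCm39 genome at the exons of GENCODE vM39, with capitals marking the longest run of bases found in both (GCGTGGCTG, 9 bases). They lie on the + strand at chr5:33888625-33888775 (IIIb, 151 bases) and chr5:33889461-33889605 (IIIc, 145 bases).
Fgfr3 IIIb: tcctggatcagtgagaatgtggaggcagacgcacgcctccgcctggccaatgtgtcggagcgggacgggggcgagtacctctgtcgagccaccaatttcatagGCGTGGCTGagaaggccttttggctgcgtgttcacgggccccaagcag
Fgfr3 IIIc: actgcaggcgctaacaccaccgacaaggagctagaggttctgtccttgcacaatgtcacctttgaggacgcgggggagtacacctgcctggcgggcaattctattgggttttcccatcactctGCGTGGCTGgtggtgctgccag

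In the 11 annotated coding transcripts that hold it, the IIIc exon of *Fgfr3* ends a median of 2854 bases before the transcript's 3′ end. For the IIIb exon, held by 4 coding transcripts, the median is 1648 bases and the minimum 22. The libraries were made with a 3′ kit, which captures transcripts by their tails, so each UMI counts the end of a transcript. Counts are given per gene, so every value below sums the IIIb and IIIc forms. *Fgfr4* (chr13:55300352-55316572, + strand) and *Fgfrl1* (chr5:108840206-108858366, + strand) have no such exon pair. Because a transcript's end is counted once whatever its length, levels of different receptors are set side by side as UMIs per 1000000 UMIs (CPM), and capture efficiency may differ between genes.

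The FGF8 library held 7249 barcodes and 124889213 UMIs and the BSA library 3703 barcodes and 67739460 UMIs. Filtering by the number of genes and by mitochondrial transcripts left 6715 FGF8 and 3252 BSA cells, with a median of 12251 and 15377 UMIs, and 6 barcodes occurred in both libraries. Cells were clustered without the receptor genes and named from marker lists, as "X-like" where the markers allowed it, which gave 20 populations including 6 subclusters of fibroblast-like cells; clusters that could not be named are called by their leading genes. The fibroblast subclusters were drawn without sex-linked genes and without the genes that the paper listed as differing between FGF8 and BSA fibroblasts. Keratinocyte-like cells were present (124 FGF8 and 126 BSA cells) although the epithelium had been dissected away. Among cells whose sex could be called from sex-linked transcripts, 24.6% were female in FGF8 (23.4 to 25.9) and 79.3% in BSA (77.6 to 80.9), so values within each sex are given where they bear on a result; sex and individual mice cannot be told apart.

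*Fgfr1*, the main mesenchymal receptor, was the most abundant family member, with 17292 UMIs in FGF8 (168 CPM) and 8230 in BSA (151 CPM). *Fgfr2* followed with 10390 UMIs in FGF8 (101 CPM) and 6132 in BSA (113 CPM). The other receptors were about an order of magnitude rarer: the level of *Fgfrl1* was 14.9 CPM in the FGF8 library against 14.3 CPM in the BSA library, that of *Fgfr3* 5.66 against 5.41 CPM, and that of *Fgfr4* 5.17 against 13.0 CPM. *Fgfr1* and *Fgfr4* were the receptors most concentrated in fibroblast-like cells, which held 88.1% and 90.2% of all *Fgfr1* UMIs and 91.2% and 93.3% of all *Fgfr4* UMIs in FGF8 and BSA. *Fgfr3* was the least so, at 38.5% and 32.3%. These shares also reflect the size of the population, whose share of all UMIs is not given. Fibroblast-like cells were 3315 of the 6715 FGF8 and 1708 of the 3252 BSA cells, at medians of 18633 and 20148 UMIs.

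**Figure D1:**
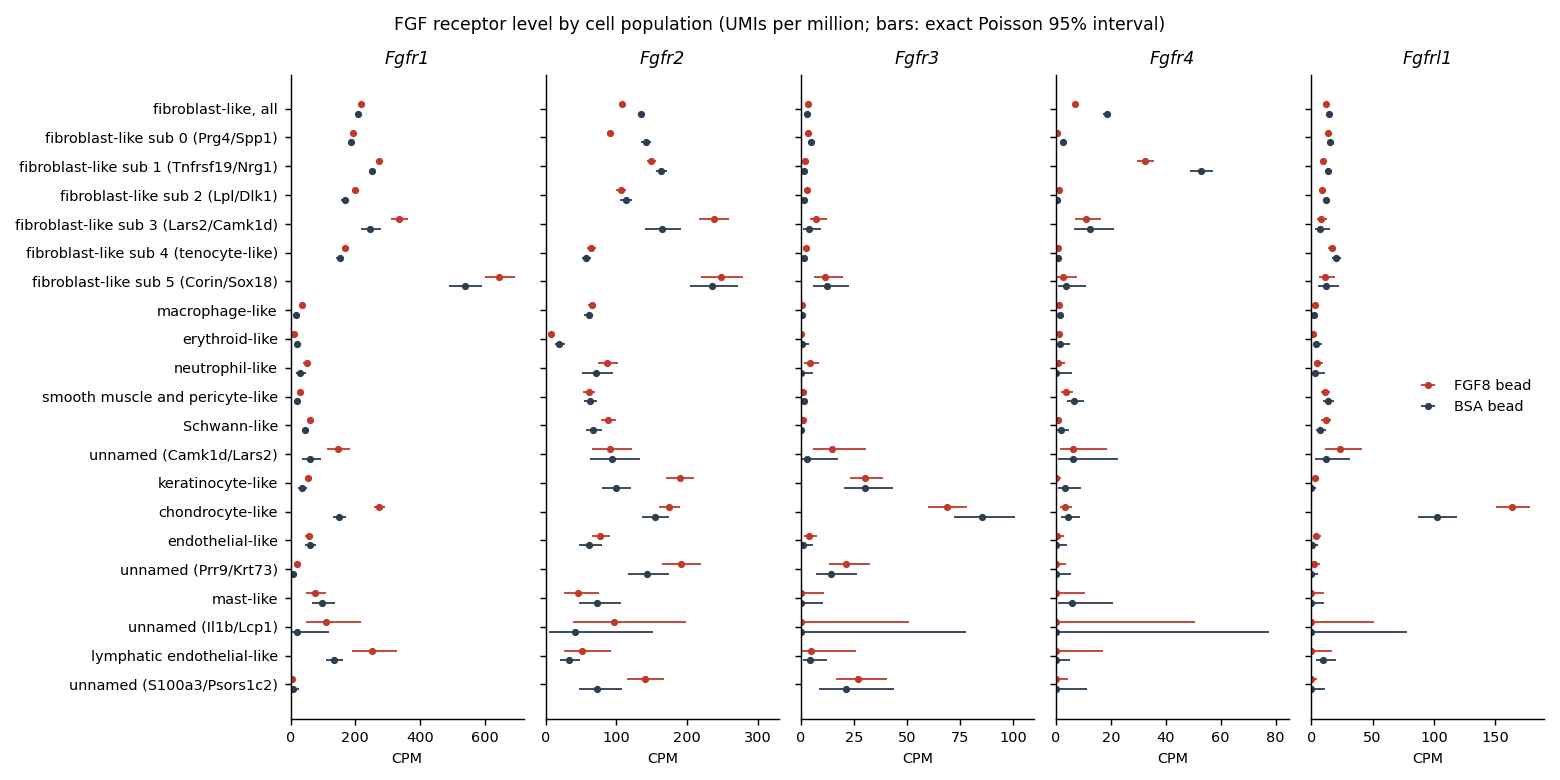
Level of each FGF receptor (CPM, horizontal axis, a separate scale for each receptor) in the 20 populations of the FGF8 and BSA libraries; points are sums over the cells of 1 library and lines are exact 95% Poisson intervals. *Fgfr1* and *Fgfr2* peak in the Corin/Sox18 fibroblast subcluster, *Fgfr3* and *Fgfrl1* in chondrocyte-like cells and *Fgfr4* in the Tnfrsf19/Nrg1 fibroblast subcluster, in both libraries.

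*Fgfr1* stood highest in fibroblast subcluster 5, a small group led by *Corin* and *Sox18* (81 FGF8 and 40 BSA cells), at 645 CPM in FGF8 (599 to 694) and 538 CPM in BSA (489 to 591). No other population's interval reached these levels. Across all fibroblast-like cells *Fgfr1* was at 218 CPM in FGF8 (215 to 222) and 209 CPM in BSA (204 to 214). Lymphatic endothelial-like cells were at 252 CPM in FGF8 (189 to 329, from 11 cells) and 134 CPM in BSA (108 to 163), whereas blood endothelial-like cells were at 56.3 and 59.6 CPM. The lowest named populations were erythroid-like cells at 11.5 and 20.6 CPM, smooth muscle and pericyte-like cells at 30.6 and 21.0 CPM, and macrophage-like cells at 34.2 and 17.6 CPM. Most neighbors in this order had overlapping intervals; the breaks between neighbors in both libraries were those below subcluster 5, below subcluster 3 and below subcluster 0 (192 and 187 CPM).

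*Fgfr2*, which in its IIIb form is the classic epithelial receptor, was spread over more cell types than *Fgfr1*. Fibroblast subcluster 5 again came first, with 249 CPM in FGF8 (220 to 279) and 236 CPM in BSA (204 to 272). Fibroblast subcluster 3, led by *Lars2* and *Camk1d* and low in UMIs, was next, at 238 CPM (217 to 260) and 165 CPM (141 to 191). Among epithelial populations, the unnamed Prr9/Krt73 cells carried the hair and nail type keratins *Krt25* and *Krt71*. They were at 191 CPM (165 to 220) and 143 CPM (116 to 174). Keratinocyte-like cells were at 190 CPM (171 to 210) and 99.0 CPM (80.1 to 121), ranking 4 of 20 in FGF8 and 8 of 20 in BSA. Chondrocyte-like cells were at 175 and 154 CPM. In Prr9/Krt73 cells *Fgfr1* was nearly missing, with 19 UMIs in FGF8 and 5 in BSA, so that *Fgfr2* made up 81.7% and 86.8% of all receptor UMIs there. Fibroblast-like cells had 2.01 *Fgfr1* UMIs per *Fgfr2* UMI in FGF8 and 1.56 in BSA, against 0.285 and 0.358 in keratinocyte-like cells.

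*Fgfr2* was also counted in blood cells, at 65.4 and 60.9 CPM in macrophage-like and 87.0 and 70.8 CPM in neutrophil-like cells. The ratio of *Fgfr1* to *Fgfr2* UMIs there, 0.523 and 0.290 in macrophage-like and 0.568 and 0.432 in neutrophil-like cells, differed from that of fibroblast-like cells in the same libraries. The annotated *Fgfr2* gene is unusual: GENCODE vM39 gives it a span of 2961609 bases (chr7:129763471-132725079, − strand), since 1 transcript, with 2 of its 7 exons inside *Ctbp2*, reaches far beyond the second-longest at 104802 bases. The span overlaps 47 other genes on the same strand, 22 of them counted here. The annotation behind the deposited counts was not compared with this one, and the part of such overlap or of free RNA in the *Fgfr2* counts was not tested.

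*Fgfr3*, the cartilage receptor, reached 68.9 CPM in chondrocyte-like cells of FGF8 (60.1 to 78.6, 221 UMIs in 143 cells) and 85.6 CPM in BSA (72.0 to 101, 140 UMIs in 66 cells). The next levels were in epithelial populations: keratinocyte-like cells at 30.2 CPM in both libraries, S100a3/Psors1c2 cells (which carried the hair keratin *Krt35*) at 26.8 and 21.2 CPM, and Prr9/Krt73 cells at 21.3 and 14.4 CPM. The chondrocyte-like intervals overlapped none of these. Across fibroblast-like cells *Fgfr3* was at 3.22 and 2.68 CPM, and macrophage-like cells held 5 and 3 UMIs in all.

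*Fgfrl1*, the receptor without a kinase, was likewise highest in cartilage, with 164 CPM in chondrocyte-like cells of FGF8 (150 to 179) and 102 CPM in BSA (87.3 to 119). Tenocyte-like cells (fibroblast subcluster 4) were next among the named populations, at 16.6 CPM (13.4 to 20.4) and 20.3 CPM (16.6 to 24.5). Receptor UMIs in chondrocyte-like cells were thus spread over several genes, with *Fgfr1*, *Fgfr2*, *Fgfr3* and *Fgfrl1* at 40.1%, 25.5%, 10.1% and 23.9% of them in FGF8 and 30.2%, 31.1%, 17.3% and 20.6% in BSA. In these cells 5 of the 8 osteoblast markers were also found.

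*Fgfr4* was almost confined to fibroblast subcluster 1, led by *Tnfrsf19* and *Nrg1*, with 428 UMIs in 901 FGF8 cells (32.4 CPM, 29.4 to 35.6) and 609 UMIs in 625 BSA cells (52.9 CPM, 48.8 to 57.3). This subcluster held 87.9% of the *Fgfr4* UMIs of fibroblast-like cells in FGF8 and 92.4% in BSA. In both libraries its interval lay above that of every other population except the 65 Il1b/Lcp1 cells, which had no *Fgfr4* UMI and too few UMIs in all for a narrow limit. Subcluster 3, led by *Lars2* and *Camk1d* and low in UMIs (median 2544 and 2627), came next with 10.8 and 12.4 CPM, and subclusters 0, 2, 4 and 5 lay between 0.485 and 3.70 CPM. In subcluster 1, 27.9% of FGF8 cells and 42.2% of BSA cells had an *Fgfr4* UMI, and 46 and 95 cells had 3 or more, at medians of 13541 and 17632 UMIs per cell. With each cell thinned to 2000 UMIs the shares were 7.88% (6.21 to 9.84) and 10.8% (8.43 to 13.5), whose intervals overlapped. Prr9/Krt73, lymphatic endothelial-like and S100a3/Psors1c2 cells had no *Fgfr4* UMI in either library, which at 3 counts allows up to 3.05, 14.0 and 3.65 CPM in FGF8 (the intervals drawn for them reach 3.75, 17.2 and 4.49 CPM).

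**Figure D2:**
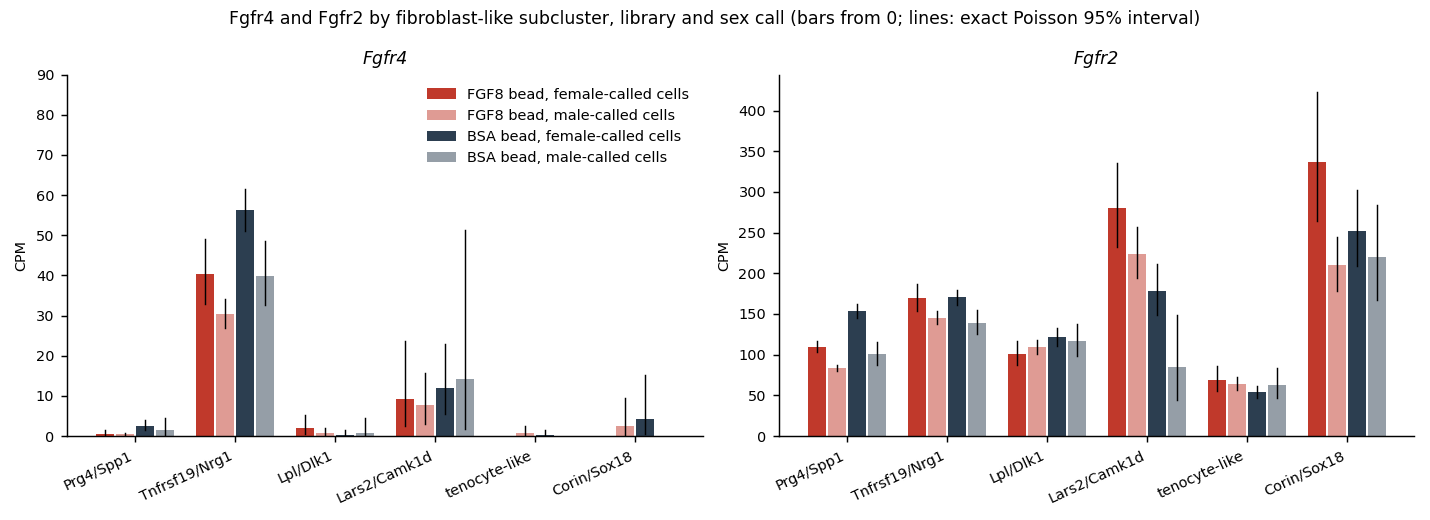
Level (CPM, vertical axis, a separate scale for each receptor) of *Fgfr4* and *Fgfr2* in the 6 fibroblast subclusters, for female-called and male-called cells of the FGF8 and BSA libraries; lines are exact 95% Poisson intervals. *Fgfr4* in the Tnfrsf19/Nrg1 subcluster stands at 40.3 and 30.3 CPM in FGF8 and at 56.2 and 39.9 CPM in BSA (female-called and male-called), above its level in the other subclusters, while *Fgfr2* is present in every subcluster.

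To count cells with a receptor transcript at a set depth, each cell was thinned to 2000 UMIs. Cells with a UMI of at least 1 of the 4 signaling receptors *Fgfr1* to *Fgfr4* were counted. A cell without such a UMI may still carry a receptor. In fibroblast-like cells the share was 50.05% in FGF8 (48.3 to 51.8, 3169 cells) and 49.97% in BSA (47.5 to 52.4, 1625 cells), and 11.01% and 10.95% had UMIs of 2 or more receptors. Without thinning, at medians of 18633 and 20148 UMIs per cell, the shares were 94.9% and 91.9%. Within them the thinned share was 67.9% and 70.0% in subcluster 5, 60.2% and 60.8% in subcluster 1, and 68.2% and 56.4% in the low-UMI subcluster 3, from which thinning left 296 and 133 cells; it was lowest in tenocyte-like cells, at 35.8% and 32.5%. Chondrocyte-like cells were at 60.4% in FGF8 (51.8 to 68.6) and 42.4% in BSA (29.6 to 55.9), and at 97.2% and 86.4% without thinning.

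Blood cells were taken for comparison, of which erythroid-like and neutrophil-like cells had been expected to lack most of these receptors. Erythroid-like cells were at 2.72% in FGF8 (1.46 to 4.61) and 10.4% in BSA (4.59 to 19.4), and neutrophil-like cells at 20.3% (16.5 to 24.6) and 15.5% (10.1 to 22.4); without thinning, at medians of 2407 and 3214 UMIs, neutrophil-like cells were at 24.02% and 20.9%. Macrophage-like cells, at 14.0% (11.7 to 16.6) and 10.8% (8.02 to 14.2), lay below the neutrophil-like share in both libraries, with overlapping intervals. Whether the UMIs in these blood cells were their own or free RNA was not tested. Within subcluster 1, an *Fgfr1* UMI was found after thinning in 56.3% of FGF8 and 55.2% of BSA cells with an *Fgfr4* UMI, and in 43.2% and 40.8% of all its cells.

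**Figure D3:**
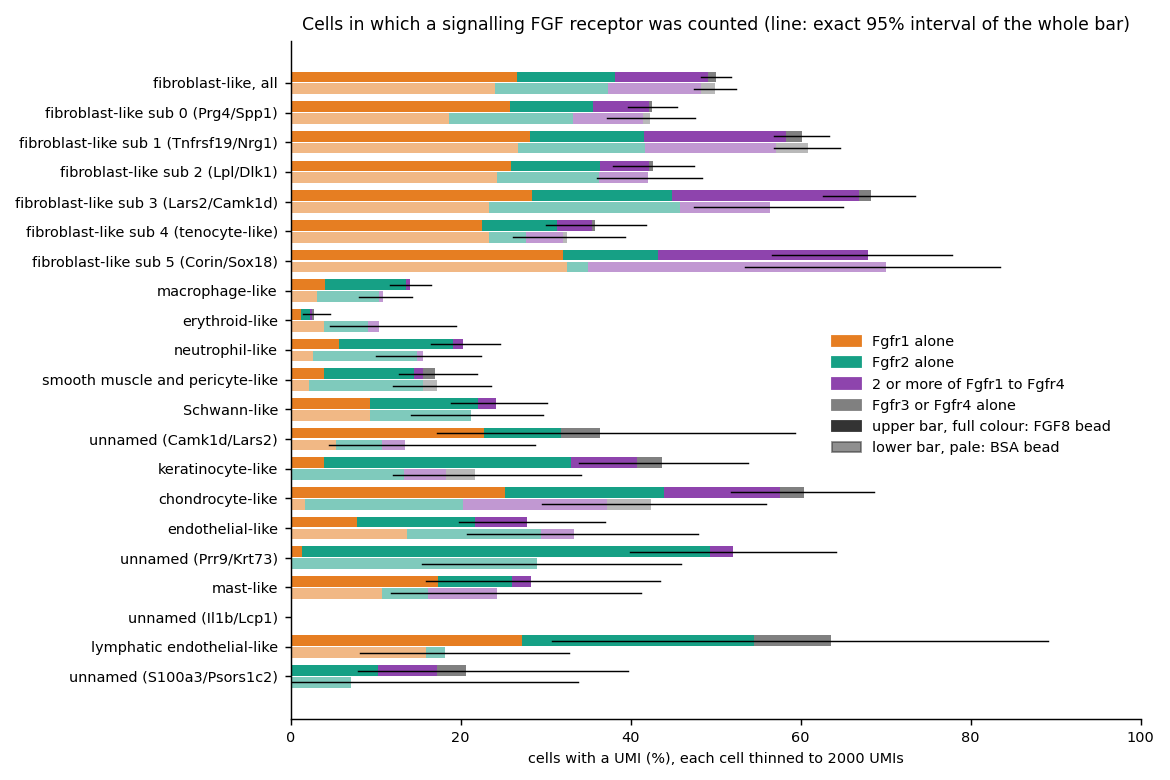
Percent of cells with a UMI of *Fgfr1*, *Fgfr2*, *Fgfr3* or *Fgfr4* after thinning each cell to 2000 UMIs, by population and library, split by color into *Fgfr1* alone, *Fgfr2* alone, 2 or more receptors and *Fgfr3* or *Fgfr4* alone, with exact 95% binomial intervals of the whole and no bar for the *Il1b*/*Lcp1* cluster, of which 2 FGF8 and 6 BSA cells reached that depth. Fibroblast subclusters lie between 32.5% and 70.0%, and erythroid-like, neutrophil-like and macrophage-like cells at 20.3% or below.

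The libraries were then compared as log2 ratios of CPM, FGF8 over BSA, with a 2-fold difference and at least 10 UMIs over both libraries as the size called. In all fibroblast-like cells 1 of the 5 receptors was past 2-fold, *Fgfr4*, at 6.97 CPM in FGF8 (487 UMIs) and 18.6 CPM in BSA (659 UMIs), a log2 ratio of −1.41 (−1.58 to −1.24). Of all 20045 genes tested in these cells, 5.09% were past 2-fold in this direction and 6.52% in the other (11.6% in either), with a median of −0.07. *Fgfr1* differed by 0.06 (0.02 to 0.10), *Fgfr2* by −0.31 (−0.36 to −0.26), *Fgfr3* by 0.27 (−0.08 to 0.63) and *Fgfrl1* by −0.27 (−0.43 to −0.11). *Fgfr1*, the receptor with the most UMIs in these cells, differed least, at 218 CPM in FGF8 and 209 CPM in BSA. *Fgfr4* was no longer past 2-fold with each cell thinned to 2000 UMIs (−0.71) or weighted equally (−0.95). The direction turned for *Fgfr1* in male-called cells (−0.093) and for *Fgfr3* in female-called cells and when thinned to 2000 UMIs (−0.15 and −0.23). It also turned for *Fgfrl1* under a stricter cell filter (0.094), where the cluster used as fibroblast-like also had raised chondrocyte markers.

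The makeup of the fibroblast-like cells also differed between the libraries, and its part in the *Fgfr4* difference was not tested. The *Fgfr4*-bearing subcluster 1 was 27.2% of fibroblast-like cells in FGF8 and 36.6% in BSA, and 18.9% and 32.4% of their UMIs, while subcluster 0, led by *Prg4* and *Spp1*, was 35.7% and 21.4% of cells and 56.1% and 30.7% of UMIs. With the subclusters weighted as in BSA, *Fgfr4* was at 11.4 CPM in FGF8 against 18.6 CPM in BSA, a log2 ratio of −0.71 in place of −1.41. Within subcluster 1 alone the ratio was also −0.71 (−0.89 to −0.53), which was not past 2-fold there (8.33% of all genes were, in either direction). Taken by sex, subcluster 1 gave −0.48 for female-called cells (40.3 and 56.2 CPM) and −0.40 for male-called cells (30.3 and 39.9 CPM). *Fgfr4* was lower in FGF8 in each of these comparisons, and the size depended on the cells compared.

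In subcluster 0 *Fgfr2* was lower in FGF8, at 90.4 CPM in FGF8 (3542 UMIs) and 141 CPM in BSA (1540 UMIs), a log2 ratio of −0.65 (−0.73 to −0.56). Female-called cells of this subcluster gave −0.49 and male-called cells −0.27. In the low-UMI subcluster 3 *Fgfr2* lay the other way, at 238 and 165 CPM (0.53, 0.28 to 0.79), with 0.66 (female-called) and 1.40 (male-called, 12 BSA UMIs). Past 2-fold in subcluster 0 was 1 of the 5 receptors, *Fgfr4*, from 19 UMIs in FGF8 and 27 in BSA (0.485 and 2.48 CPM, −2.35, −3.28 to −1.45), where 9.85% of all genes were past 2-fold lower. In subcluster 2 *Fgfr4* was called higher from 11 and 3 UMIs, with an interval that spanned 0 (1.32, −0.60 to 3.81; 6.45% of all genes were past 2-fold higher). None of the receptors was past 2-fold in subclusters 1, 3, 4 and 5, where 8.33%, 13.4%, 8.3% and 11.6% of all genes were.

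Chondrocyte-like cells had more *Fgfr1* in FGF8, at 274 CPM (880 UMIs in 143 cells) against 150 CPM in BSA (245 UMIs in 66 cells), a log2 ratio of 0.87 (0.67 to 1.08). The direction held in female-called cells (0.99) and in male-called cells (1.41, from 29 BSA UMIs). The share of thinned cells with an *Fgfr1* UMI was 35.3% (27.3 to 43.8) and 16.9% (8.44 to 29.0), and 88.1% and 71.2% without thinning. *Fgfrl1* in the same cells was at 164 and 102 CPM, a log2 ratio of 0.68 (0.43 to 0.94), which was 1.002 among female-called cells but 0.19 among male-called cells. *Fgfr2* (0.18, −0.04 to 0.40) and *Fgfr3* (−0.31, −0.63 to 0.00) had intervals that reached 0. *Fgfr3* went opposite ways by sex, at −0.86 (−1.36 to −0.37) in female-called cells and 0.34 (−0.38 to 1.13) in male-called cells. None of the 5 receptors was past 2-fold in chondrocyte-like cells, where 16.6% of all genes were.

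**Figure D4:**
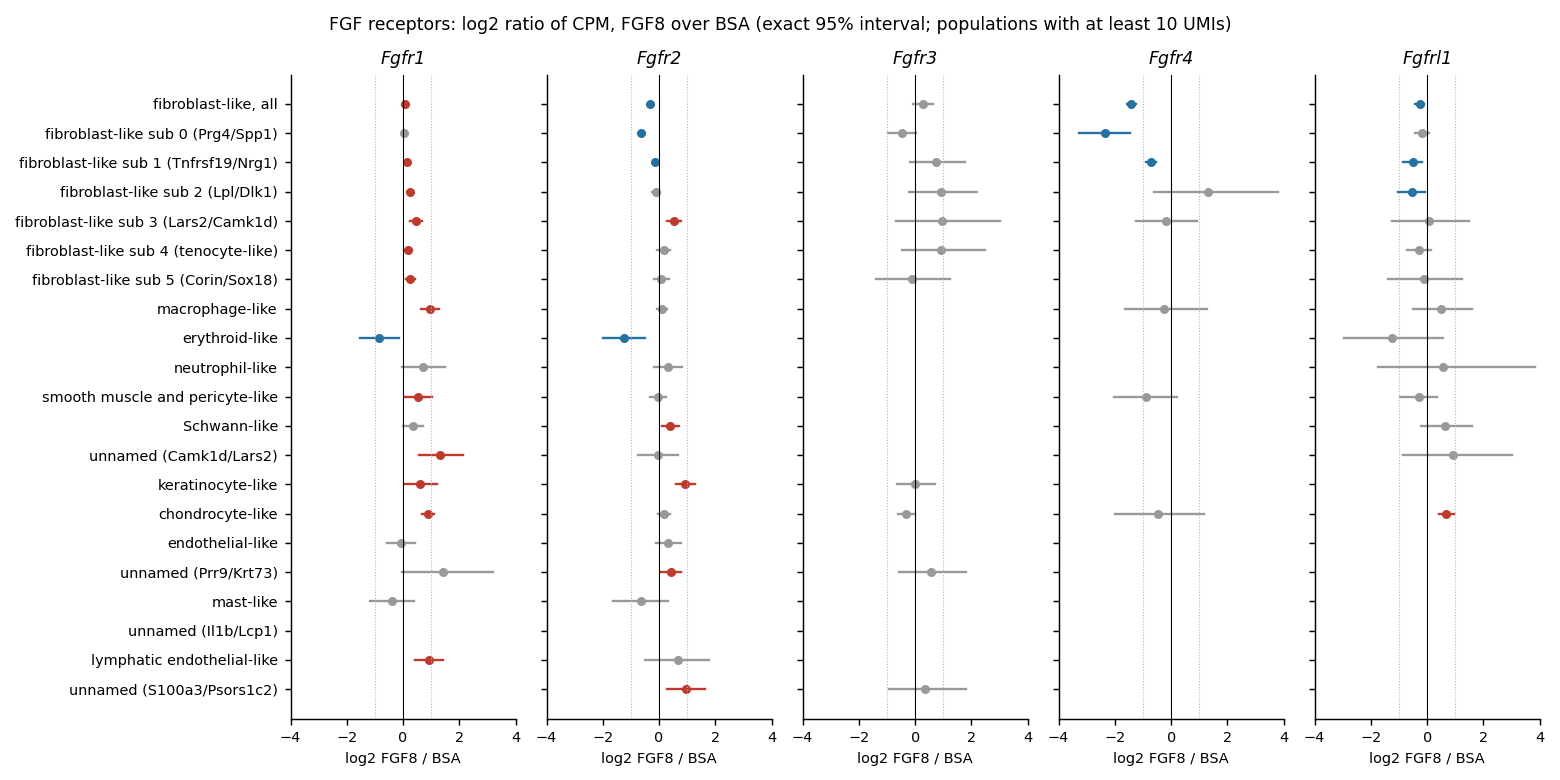
Log2 ratio of CPM, FGF8 over BSA, for each receptor in each population with at least 10 UMIs of it, with exact conditional 95% intervals for counting error (drawn only between −4 and 4); dotted lines mark a 2-fold difference, and red, blue and gray mark intervals above, below and spanning 0. *Fgfr1* lies above 0 in most populations, *Fgfr2* on both sides, and *Fgfr4* below 0 in fibroblast-like cells at −1.41.

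In the remaining populations *Fgfr1* mostly lay higher in FGF8. Over the 18 populations in which it could be compared, the interval was above 0 in 11 and below 0 in 1, erythroid-like cells. The pool of all fibroblast-like cells was left aside, and no share of all genes with such intervals is given beside these counts. In the 11 populations the median gene lay between −0.04 (chondrocyte-like) and 0.24 (keratinocyte-like), and in erythroid-like cells at −0.51. Of the 11, the direction turned in keratinocyte-like cells that were female-called (−0.62 against 0.61 over all) and in male-called cells of subcluster 5 (−0.15 against 0.26) and of the lymphatic endothelial-like cells (−0.09 against 0.92, from 3 BSA UMIs). In macrophage-like cells *Fgfr1* was at 34.2 CPM (350 UMIs) and 17.6 CPM (102 UMIs), a log2 ratio of 0.96 (0.63 to 1.29) that was short of 2-fold, as were the other receptors tested in these cells (11.6% of all genes were past it). The ratio was 0.998 for female-called cells but 0.15 for male-called cells, and male-called cells were higher than female-called cells within each library (37.6 and 20.3 CPM in FGF8, 34.0 and 10.2 CPM in BSA). Lymphatic endothelial-like cells differed by 0.92 (0.41 to 1.41), from 11 FGF8 and 46 BSA cells.

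*Fgfr2* in keratinocyte-like cells was at 190 and 99.0 CPM, a log2 ratio of 0.94 (0.61 to 1.28), but these cells had a median of 9582 UMIs in FGF8 and 1761 in BSA, and by sex the ratio was 0.21 (female-called) and 1.44 (male-called). It was not past 2-fold, as 20.9% of all genes were in these cells. Calls past 2-fold outside the fibroblast-like cells were few. *Fgfr1* was called higher in the unnamed low-UMI Camk1d/Lars2 cells (69 and 19 UMIs, 1.302, 0.55 to 2.12; 16.8% of all genes were called higher). It was also called in Prr9/Krt73 cells (19 and 5 UMIs, 1.42, −0.05 to 3.20; 11% called higher). In erythroid-like cells *Fgfr2* (37 and 28 UMIs, −1.26) and *Fgfrl1* (8 and 6 UMIs, −1.25) were called lower, in a comparison where 24.8% of all genes were called lower, the median gene was at −0.51 and the median cell had 6970 UMIs in FGF8 and 18691 in BSA. The interval of *Fgfr3* included 0 in each of the 10 populations in which it could be compared.

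The genes around the receptors were read from 5 lists, with 77 of their 86 genes tested in fibroblast-like cells. Of these, 3 were past 2-fold higher in FGF8 (*Etv4*, *Fgf23* and *Fgfbp1*) and 0 lower, against 6.52% and 5.09% of all genes. The call of *Fgfbp1*, a carrier protein that releases FGFs from the matrix, rested on 25 and 4 UMIs (1.67, 0.13 to 3.65) and turned to −0.21 in female-called cells. It was lost at a minimum of 50 UMIs, which left 2 of 74 genes called higher, beside 3.73% of all genes. Among the ligands, *Fgf23* was at 1.79 and 0.42 CPM (2.08) and *Fgf7*, which signals to the epithelial form of *Fgfr2*, differed by 0.17, whereas *Fgf1* (−0.999), *Fgf16* (−0.84) and *Fgf18* (−0.68) were lower. By sex *Fgf7* turned, with 0.38 for the female-called cells and −0.11 for the male-called. *Fgf23* stayed higher (3.06 and 1.003), and *Fgf1* (−1.27 and −0.15), *Fgf16* (−0.58 and −0.31) and *Fgf18* (−0.82 and −0.34) stayed lower, by less in male-called cells. *Fgf8* itself had 3 UMIs in the fibroblast-like cells of each library; the protein on the bead leaves no transcript.

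Among 28 tested co-receptor and heparan sulfate genes the median log2 ratio was −0.01. The heparan sulfate carriers syndecan *Sdc4* (284 and 162 CPM, 0.81) and glypican *Gpc1* (0.45) were higher in FGF8, as was the sulfotransferase *Hs6st2* (0.53). The glypican *Gpc3* (210 and 384 CPM, −0.87), the sulfatase *Sulf2* (75.4 and 151 CPM, −0.998) and agrin (*Agrn*, −0.48) were lower. The 13 receptor adaptors had a median of −0.12 and ranged between *Grb2* and *Crk* at 0.16, *Ptpn11* at 0.12, *Gab2* at −0.42, *Frs3* at −0.46 and the phospholipase *Plcg1* at −0.47. The 11 genes of the Ras and MAP kinase cascade had a median of 0.04, with *Hras* at 0.48, *Map2k2* at 0.27 and *Nras* at 0.10 on one side and *Araf* at −0.37 and *Braf* at −0.13 on the other. No adaptor and no member of the kinase cascade was past 2-fold.

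Feedback inhibitors and Ets factors, transcripts known to be induced when these receptors signal, had a median of 0.32 over 13 tested genes, against −0.07 for all genes. The Ets factor *Etv4* was at 20.7 and 4.70 CPM (2.14), the ERK phosphatase *Dusp6* at 18.7 and 9.97 CPM (0.90), and *Dusp5* differed by 0.98. Other members of this list, *Il17rd* (−0.59), *Spry1* (−0.43) and *Etv1* (−0.24), lay lower. Intervals by population follow, with no share of all genes above 0 beside them, so the counts have no baseline. The interval of *Dusp6* was above 0 in 10 of the 19 populations in which it could be compared and below 0 in 0. For *Etv4* it was above 0 in 6 of 16 and below in 1, for *Spry4* above in 5 of 14 and below in 2, and for *Etv5* above in 2 of 14 and below in 0. Some of these turned by sex: *Dusp6* in keratinocyte-like cells, 0.66 over all cells, was at −0.14 among female-called and −0.18 among male-called cells, and *Spry4* in tenocyte-like cells, 1.20 over all, was at −0.75 in male-called cells (9 and 3 UMIs).

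Chondrocyte-like cells, where 10.6% of all genes were past 2-fold higher, were past it in all 4 of these genes, with *Spry4* at 16.2 and 6.12 CPM (1.41), *Dusp6* at 21.5 and 10.4 CPM (1.05), *Etv5* at 32.1 and 11.6 CPM (1.47) and *Etv4* with 30 UMIs and 1 UMI. By sex, *Dusp6* in these cells was at 2.06 for female-called cells and −0.34 for male-called cells (29 and 6 UMIs), and the other 3 genes lay above 0 wherever they could be compared. In the *Fgfr4*-bearing subcluster 1, all 4 intervals were above 0 (*Spry4* 1.09, *Etv5* 0.92, *Etv4* 0.78, *Dusp6* 0.56). In subcluster 0 *Etv4* (31.5 and 8.26 CPM, 1.93) and *Dusp6* (0.57) were higher, and *Spry4* (0.00) and *Etv5* (−0.03) had intervals around 0. In subcluster 5, where *Fgfr1* was most abundant, *Spry4* was lower in FGF8, from 3 and 10 UMIs (−2.22, −4.72 to −0.26). *Dusp6* (−0.29, −1.42 to 0.86, 16 and 14 UMIs) and *Etv5* (0.03, −1.51 to 1.66, 10 and 7 UMIs) had intervals that spanned 0 there, and *Etv4*, with 0 UMIs and 1 UMI, could not be compared.

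**Figure D5:**
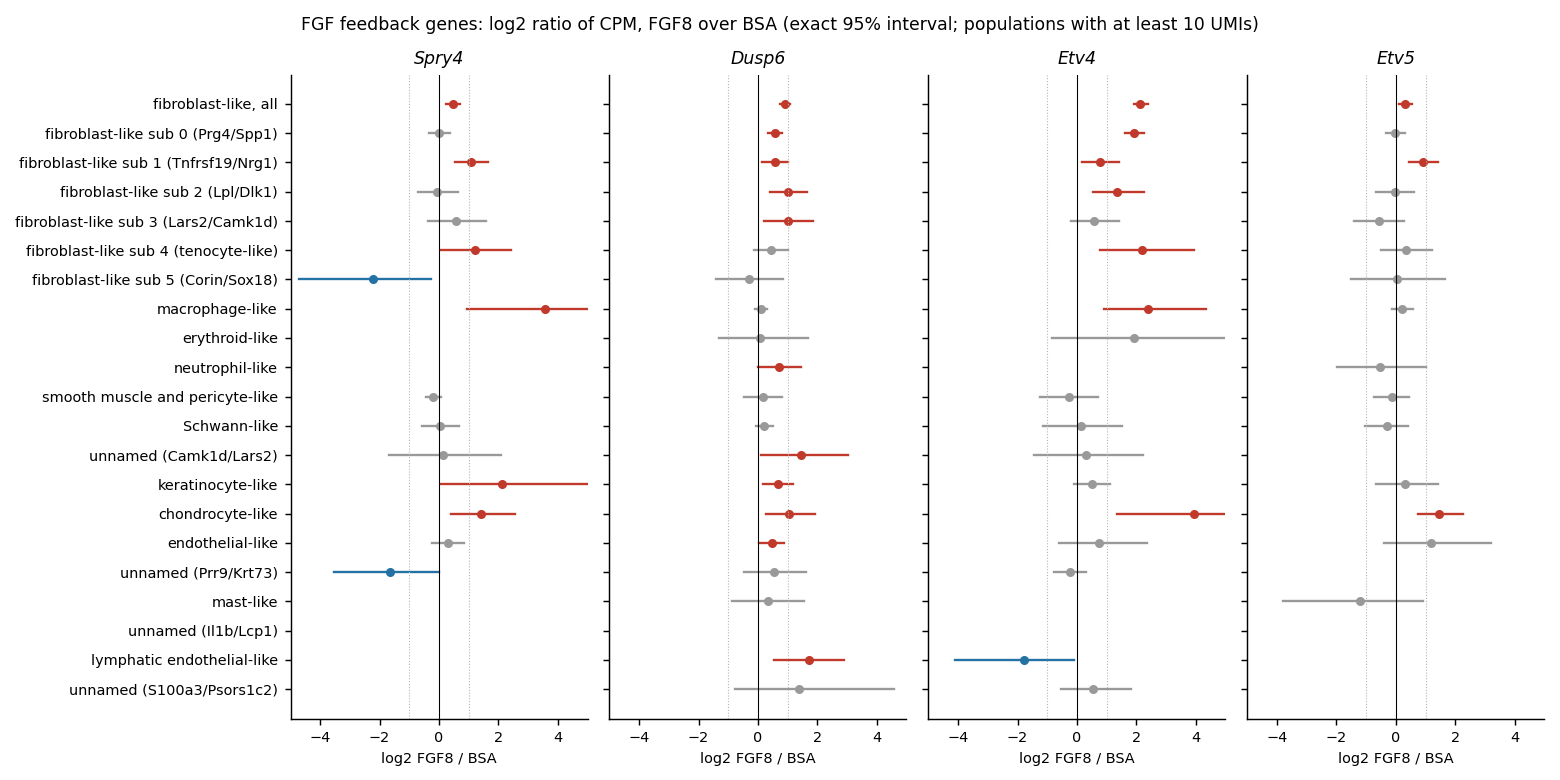
Log2 ratio of CPM, FGF8 over BSA, of *Spry4*, *Dusp6*, *Etv4* and *Etv5* in each population with at least 10 UMIs of the gene, with exact conditional 95% intervals for counting error (drawn only between −5 and 5; colors and dotted lines as for the receptor ratios). All 4 genes lie above 0 in chondrocyte-like cells and in the Tnfrsf19/Nrg1 fibroblast subcluster, and *Dusp6* lies at or above 0 in most populations.

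Genes with the pattern most like each receptor's were ranked over the 38 population and library combinations with at least 100000 UMIs, by Pearson's r of log2(CPM + 5) among 12499 genes; these points share 2 libraries and differ in depth, so the values are descriptions. *Fgfr1* was most like *Myh10* (r = 0.89), *Cgnl1*, *Ltbp1*, *Arfgap3* and *Tmem263*. *Fgfr2* was most like *Kdm5b* (0.86), *Rarg*, *Dmtf1*, *Zfp609* and *Sipa1l1*, and *Fgfr3* most like *Eps8l2* (0.87), *Vdr*, *Wnt4*, *Msmo1* and *Kank1*. *Fgfr4* was most like *Rspo4* (0.88), *Col7a1*, *6530403H02Rik*, *Hs3st5* and *Tmem132c*. *Fgfrl1* was most like the cartilage proteoglycan gene *Acan* (0.88), *Il17d*, *Col27a1*, *Grb14* and *Slc8a3*.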

How the data were processed

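The values analysed are UMI counts, not normalized and not yet filtered by cell, which the authors obtained with the 10x 3′ kit and Cell Ranger 9.0.0 (build GRCm39) and deposited for each gene and barcode. The submitters' processing notes also list mm10, with no role given. The receptors and gene lists were chosen with earlier results of these data known. Cells were kept at more than 200 and fewer than 7500 genes with under 15% mitochondrial UMIs. They were clustered as in the paper (R 4.3.3; Seurat 5.3.0; sctransform 0.4.2; SCTransform per library, CCA, 30 principal components, 3000 variable features, resolution 0.05, seed 42), leaving the 5 receptors out of the features. Fibroblast-like, unnamed and mural clusters were re-clustered at 0.2. For the fibroblast-like cells, the features also left out X- and Y-linked genes and the genes that the paper listed as differing between its FGF8 and BSA fibroblasts. With the receptors out as well, 2674 of the 3000 variable features remained. Names needed 3 markers found in 10% of cells, and further naming rules were set after seeing the data. Doublets were kept; leaving out the highest Scrublet scores (389 FGF8 and 96 BSA cells, at an assumed rate) was an alternative.

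UMIs were summed per library and population in Python 3.11.15 (numpy 2.4.6, scipy 1.17.1, pandas 2.3.3, scanpy 1.11.5, matplotlib 3.10.9) and divided by the population's total UMIs (CPM). Sums carry exact Poisson, shares exact binomial (Clopper-Pearson) and ratios exact conditional intervals at 95%; a count of 0 allows up to 3 counts. Ratios need 10 UMIs over both libraries, and 1 library at 0 enters at 3 counts. Named genes were the 5 receptors, the 3 highest and 3 lowest genes of each pathway list with at least 100 UMIs, the 5 genes most like each receptor (at least 500 UMIs) and *Spry4*, *Dusp6*, *Etv4* and *Etv5*; *Fgfbp1* and *Fgf8* were named after their values were seen. A gene that this rule names and the exons of other receptors are not reported here. Ratio and thinning steps were tested on simulated data. All 5 receptor identifiers matched GENCODE vM39. Protein sequences were not used here.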

Additional observations from a re-analysis of the deposited data

Results flagged for a closer look

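The following ratios lay on opposite sides of 0, with counting intervals that exclude 0, in groups set side by side; none of these differences between groups was tested. *Fgfr1* in all fibroblast-like cells differed by 0.13 on the log2 scale (FGF8 over BSA) in female-called cells and by −0.093 in male-called cells. Over all cells, *Fgfr1* was 0.06 in fibroblast-like cells and −0.84 in erythroid-like cells. *Fgfr2* was −0.31 in fibroblast-like cells and lay above 0 in their low-UMI Lars2/Camk1d subcluster (0.53), in Schwann-like cells (0.39), in keratinocyte-like cells (0.94), in Prr9/Krt73 cells (0.42) and in S100a3/Psors1c2 cells (0.94). By sex, *Fgfr2* in Prr9/Krt73 cells was at −0.21 (female-called) and 0.15 (male-called), with intervals that spanned 0. *Fgfrl1* was −0.27 in fibroblast-like cells and 0.68 in chondrocyte-like cells.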

How the results depend on the processing

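No paired analysis was possible because each condition has 1 library. For the log2 ratios in fibroblast-like cells, the stricter cell filter gave 0.10 for *Fgfr1*, −1.18 for *Fgfr4* and 0.094 for *Fgfrl1*, whose direction thus turned. Cells were clustered anew under this filter, and no cluster was named chondrocyte. The cluster used as fibroblast-like held 4170 cells, 3832 of them among the main 5023. Its chondrocyte markers were raised (mean log2 fold 4.49, against 3.84 for fibroblast markers), and the part of this in the turn of *Fgfrl1* was not tested. Keeping the receptors among the variable features gave −0.25 for *Fgfr2*, over 5830 cells in place of 5023. Female-called cells gave 0.13, −0.19 and −0.15 for *Fgfr1*, *Fgfr2* and *Fgfr3*, and male-called cells −0.093, −0.21 and 0.90. Thinning to 2000 UMIs gave 0.14, −0.21, −0.23 and −0.71 for *Fgfr1* to *Fgfr4*, so that *Fgfr4* was no longer past 2-fold, and thinning to 5000 UMIs gave 0.11, 0.95 and −1.20 for *Fgfr1*, *Fgfr3* and *Fgfr4*. Equal weight for each cell gave 0.21, −0.092, 0.68 and −0.95 for *Fgfr1* to *Fgfr4*, and centering on the median gene 0.13 and −0.24 for *Fgfr1* and *Fgfr2*. Of 2 alternatives chosen after seeing the data, weighting subclusters as in BSA gave 0.14, −0.21 and −0.71 for *Fgfr1*, *Fgfr2* and *Fgfr4*, and leaving out the low-UMI subcluster 3 moved none beyond its counting interval. *Fgfr4* lay below 0 under every alternative run. The cause of these shifts was not tested.

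In erythroid-like cells *Fgfr2* turned to 0.76 in male-called cells and *Fgfrl1* to 0.73 with equal weight per cell. Outside the pool of fibroblast-like cells, 42 of 53 receptor ratios kept their direction in female-called cells and 39 of 54 in male-called cells, and 15 and 17 differed by over 1.5-fold. *Fgfr1* in fibroblast-like cells was at 263 and 239 CPM (FGF8 and BSA) when thinned to 2000 UMIs and at 259 and 224 CPM with equal weight. At a 1.5-fold threshold 7 of the 77 tested pathway genes were higher and 6 lower, beside 13.3% and 15.7% of all 20045 genes. The share of fibroblast-like cells with a signaling receptor was 94.9% and 91.9% without thinning and 76.2% and 75.6% at 5000 UMIs, and with 2 or more 71.5% and 72.1%, and 29.1% and 30.9%. Depth limits *Fgfr3* and *Fgfr4* most. *Fgfr4* rests on few UMIs outside subcluster 1, and *Fgfr3* outside cartilage, epithelium and subcluster 0 (129 UMIs in FGF8 and 50 in BSA).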

Other observations

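In some populations receptor levels also differed between female-called and male-called cells of the same library. The treatment does not enter this comparison, but sex and individual mice cannot be told apart in it. Of 16 populations compared in both libraries, *Fgfr1* had intervals higher in female-called cells of both in 1 and in male-called cells in 1. For *Fgfr2* these were 2 and 1 of 16, for *Fgfr4* 1 and 0 of 3, and for *Fgfr3* and *Fgfrl1* 0 of 4 and 0 of 8 either way. The cases below are from these few. *Fgfr2* in fibroblast subcluster 0 was at 110 CPM in female-called and 83.6 CPM in male-called cells of FGF8, and at 154 and 101 CPM in BSA, with log2 differences of 0.39 (0.28 to 0.51) and 0.61 (0.39 to 0.84). *Fgfr4* in subcluster 1 was at 40.3 and 30.3 CPM in FGF8 and at 56.2 and 39.9 CPM in BSA (0.41, 0.07 to 0.75, and 0.49, 0.18 to 0.82). *Fgfr1* in chondrocyte-like cells was at 324 and 251 CPM in FGF8 and at 164 and 94.8 CPM in BSA. In macrophage-like cells both *Fgfr1* and *Fgfr2* were lower in female-called cells of each library, with *Fgfr2* at 45.6 and 64.6 CPM in FGF8 and 45.7 and 75.3 CPM in BSA.

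Within the smooth muscle and pericyte-like cells, *Fgfr4* was at 4.1 CPM in FGF8 (12 UMIs) and 7.9 CPM in BSA (19 UMIs) in the larger subcluster. Barcodes that did not pass the cell filters held *Fgfr1* at 185 CPM in both libraries, and *Fgfr4* at 1.48 CPM in FGF8 and 4.71 CPM in BSA. Passing barcodes were 92.6% (FGF8) and 87.8% (BSA) of all. They held 103223720 of 124889213 UMIs in FGF8 and 54376379 of 67739460 in BSA. Failing barcodes thus had more UMIs each on average than passing cells, and their levels are not a measure of free RNA.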
